A study of Mus musculus with 2 samples.

Results

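Sugar, amino acid and peptide carriers of the intestine were taken as the genes of the deposited table whose symbol begins with Slc1a, Slc2a, Slc3a, Slc5a, Slc6a, Slc7a, Slc15a, Slc36a, Slc38a or Slc43a followed by a digit. These are families of the solute carrier (Slc) nomenclature, and 92 of the 27275 genes in the table matched. The matching used gene names and no measured value, though these families were picked with earlier results of these data known. Transcripts were measured in small intestine tissue of naive mice, with 1 library per genotype. The design text of the study calls the tissue proximal small intestine. The wild-type library carries the genotype label Spib+Villin-Cre, and the knockout library the label Spibfl/flVillin-Cre, so the Cre transgene is named in both. They are called wild type and knockout here. Spib encodes a transcription factor of the ETS family, and the villin promoter drives Cre in intestinal epithelium, so immune cells of the tissue should keep the gene. The tissue was whole, and the sources used here do not give the number, age or sex of the mice behind each library.

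Absorptive enterocytes take up sugars, peptides and amino acids from the gut lumen through carriers of the apical brush border and release them to the blood through carriers of the basolateral membrane. Apical uptake is mostly driven by the sodium gradient or by protons, while basolateral exit is mostly by facilitated diffusion or by exchange. Some amino acid carriers are heterodimers, in which a heavy chain of the Slc3 family brings a light chain of the Slc7 family to the membrane. The names of the Slc families do not fix the substrate, so the genes were sorted by textbook knowledge into 11 substrate classes, which held 87 of the 92.

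Values are FPKM, that is reads scaled to gene length and to the size of the library, so levels can be compared between genes. With 1 library per genotype no difference has a replicate check and no p-value is given. Depth implied by the values was 17425640 reads for wild type and 17658566 for the knockout. Beside a fold stands its exact 95% Clopper-Pearson interval from the reads of the gene in both libraries, which covers counting error only and leaves out the variation between animals. Amplified reads that carry no molecular identifier are not independent molecules either. Genes with at least 1 FPKM in at least 1 library were compared, and for these the log2 ratio of knockout over wild type was taken after adding 1 FPKM to each value. That scale understates differences of low genes. Spib had 4.94 FPKM in wild type and 0.592 in the knockout, from 247 and 30 reads.

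The labelled tissue was checked against marker genes. All 12 enterocyte genes of a marker list were measured above 1 FPKM, with villin (Vil1) at 924 FPKM in wild type and 856 in the knockout. Their median log2 ratio was -0.039, but they spread from -0.38 for Fabp2 to 0.79 for Rbp2. Above 0 were 5 of them and below 0 were 7, where 58.7% of all genes compared lay. Markers of the distal small intestine went against the design text's description of the tissue as proximal, in both libraries alike. The ileal bile acid binding protein gene Fabp6 had 2030.2 FPKM in wild type and 1735 in the knockout, and the ileal bile acid carrier gene Slc10a2 had 92.6 and 92.1. The duodenal factor genes Pdx1 and Onecut2 stayed below 1 FPKM in both libraries. Other genes of the proximal list were present, with Adh6a at 88.5 and 89.4, Gata4 at 15.7 and 17.2 and the iron exporter gene Slc40a1, the only one past 2-fold, at 8.75 and 3.41. The libraries are therefore called small intestine without a region below.

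Of the 92 carrier genes, 54 reached 1 FPKM in at least 1 library and 38 did not. Carriers made up 0.734% of the FPKM sum of wild type and 0.750% of that of the knockout library. At least 100 FPKM in 1 library was reached by 6 of them, which are Slc5a1, Slc15a1, Slc6a19, Slc6a8, Slc3a1 and Slc7a9, and 26 more reached 10. Slc5a1 alone held 31.9% of the carrier sum in wild type and 36.8% in the knockout.

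**Figure D1:**
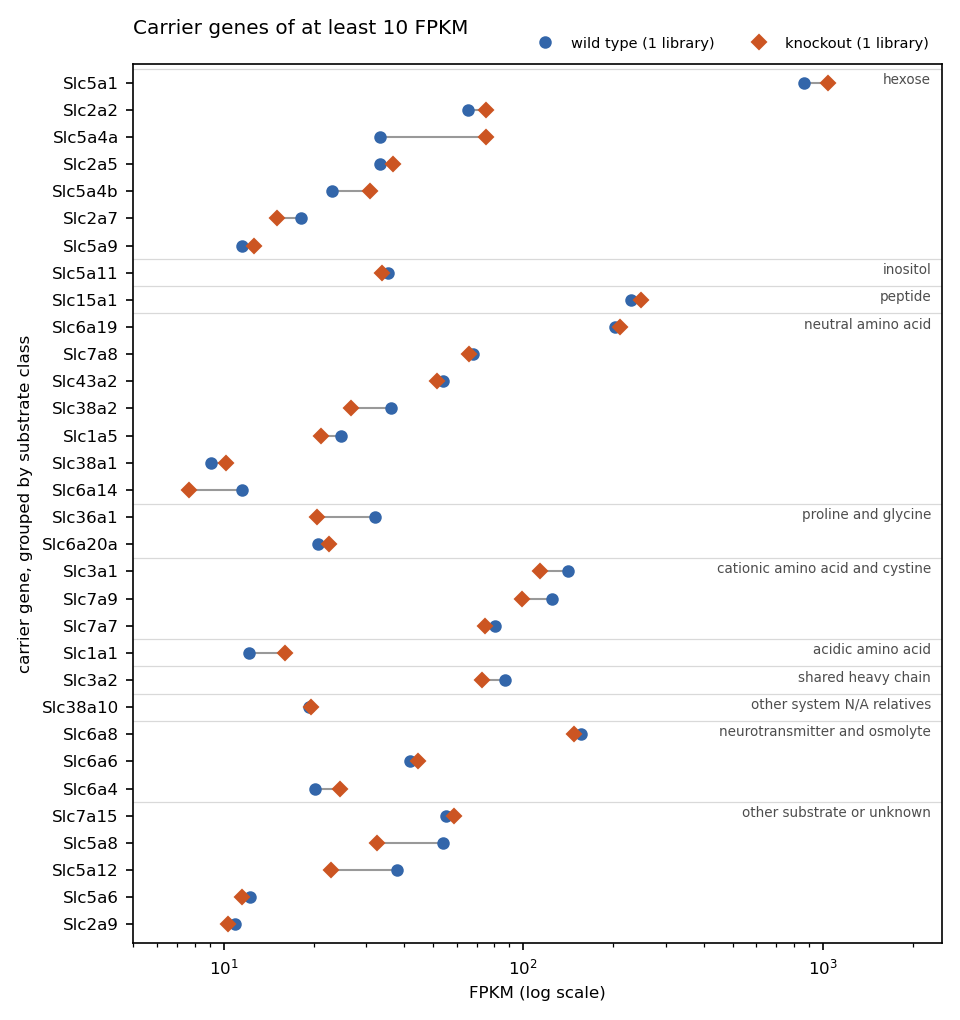
FPKM (horizontal log axis) of the 32 carrier genes with at least 10 FPKM in at least 1 library, grouped by substrate class. Circles are the wild-type library and diamonds the knockout library, with no replicates. The widest gap is that of Slc5a4a, at 33.3 and 75.3 FPKM, and Slc5a1 stands apart from the rest in level.

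Most carriers differed little between the libraries. Of the 54 compared, 1 was higher in the knockout by 2-fold or more, 0 were lower by as much, and 53 lay within 2-fold. Over all 13479 genes compared, 1.61% were at least 2-fold higher and 2.51% at least 2-fold lower, and 4.12% passed in either direction. At the smaller step of 1.5-fold, 1 carrier was higher (Slc5a4a) and 4 were lower (Slc7a5, Slc5a8, Slc5a12 and Slc36a1), or 9.26% in all, against 3.56%, 5.69% and 9.25% of all genes, so that the carriers' share lay at the background. These steps are on the log2 ratio with 1 FPKM added, and Slc2a10, Slc2a8, Slc7a1, Slc6a14 and Slc2a4rg-ps, whose plain FPKM ratios pass 1.5-fold, miss it there. Among the 32 carriers of at least 10 FPKM, 1 was 2-fold higher and 0 were lower, against 1.34%, 2.71% and, for both directions, 4.05% of the 4911 genes at that level. At 1.5-fold 1 of these 32 was higher and 3 were lower, against 3.14%, 4.85% and 7.98%. The median log2 ratio was -0.058 over the 54 carriers and -0.049 over all genes compared. Below 0 were 32 carriers, or 59.3%, and of all genes 58.7%.

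**Figure D2:**
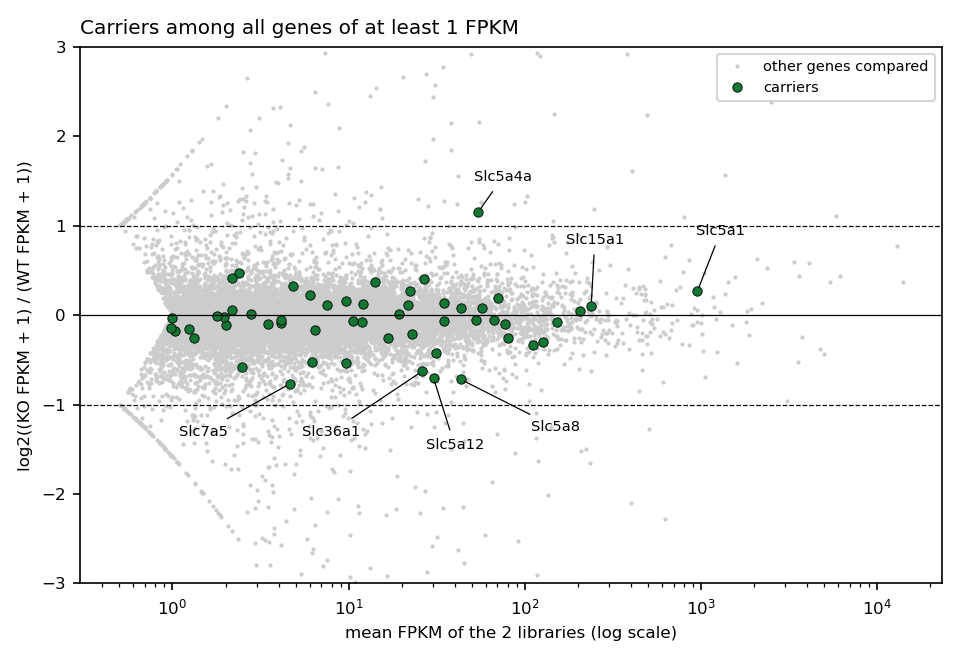
Log2 ratio with a pseudocount of 1 (vertical axis) against mean FPKM (log axis) for all genes compared in grey and the 54 carriers in green. Dashed lines mark 2-fold, and 58 genes lie beyond the vertical axis. Slc5a4a is the only carrier past a dashed line, at 1.15.

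The substrate classes differed in direction. Hexose carriers were mostly higher in the knockout, with 9 of 11 compared genes above 0 and a median log2 ratio of 0.27. Carriers of cationic amino acids and cystine were mostly lower, with 5 of 6 below 0 and a median of -0.21. Neutral amino acid carriers had a median of -0.059 over 9 genes, those of proline and glycine -0.025 over 5, peptide carriers 0.060 over 3 and inositol carriers -0.15 over 3. The direction of the peptide, proline and glycine, and neutral medians changed under other settings, with -0.13 for peptide carriers once those below 1 FPKM entered and 0.015 and 0.00076 for the other two after scaling to the median ratio of all genes. The proline and glycine median was -0.26 among genes of at least 5 FPKM. Over all genes compared, 41.3% lay above 0. The classes are small, and with 1 library per genotype the difference between classes was not tested.

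**Figure D3:**
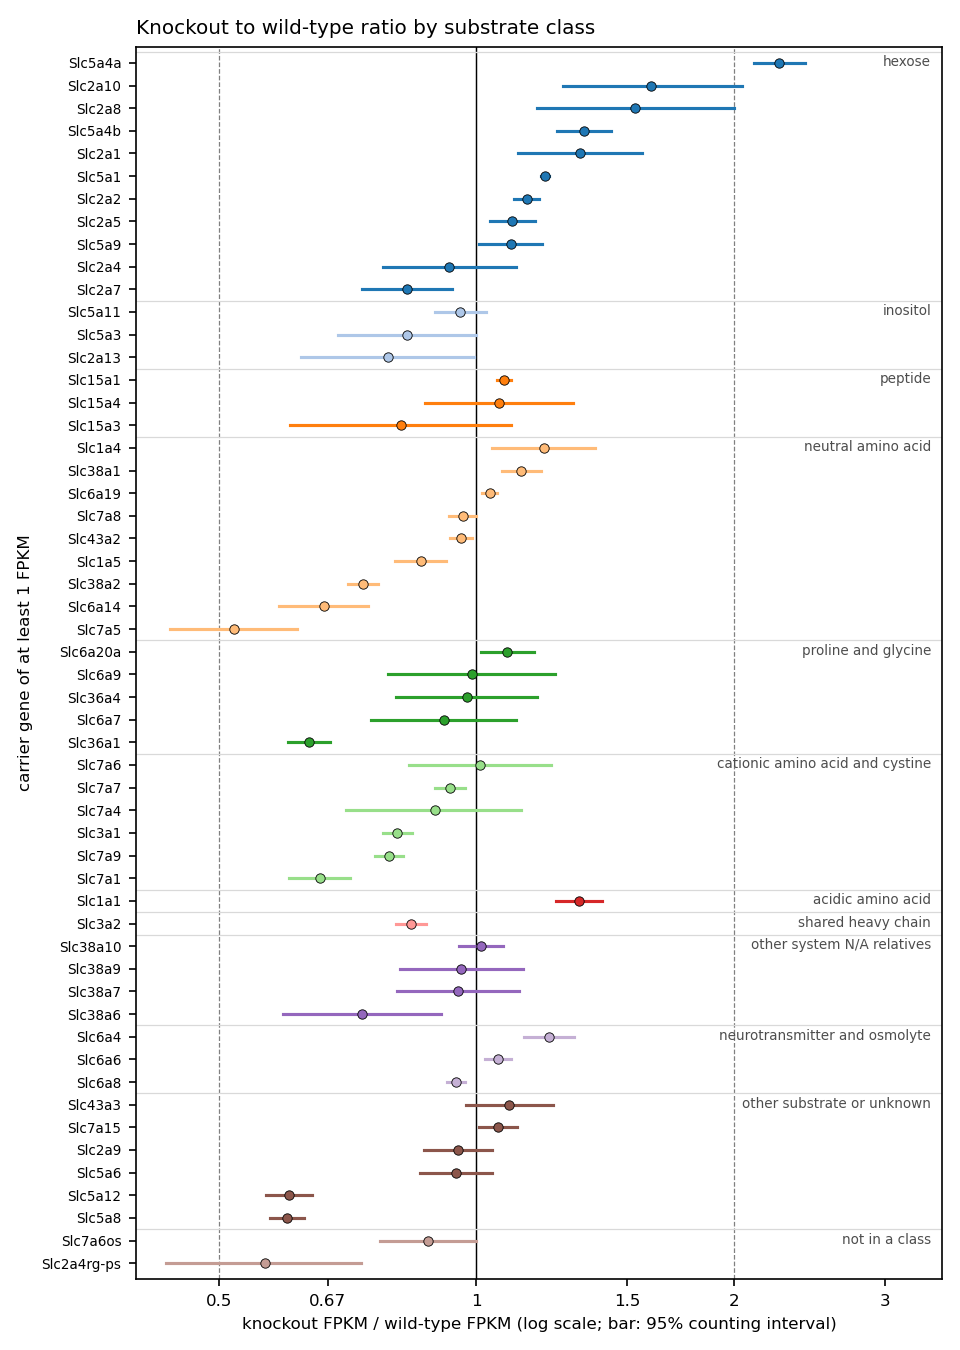
Ratio of knockout FPKM to wild-type FPKM (horizontal log axis) for the 54 compared carriers by class. Points are the ratios, bars their 95% counting intervals, and dashed lines 2-fold. Of the 11 hexose carriers 9 lie to the right of 1, and Slc7a5, Slc5a8 and Slc5a12 lie farthest to the left among genes of a class.

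Among sugar carriers, the sodium-glucose cotransporter gene Slc5a1 (SGLT1, plus strand of chromosome 5, 33104219 to 33162870, mm10) is the apical entry route of glucose and galactose. It had 866 FPKM in wild type and 1041 in the knockout, and ranked 47 and 36 among all genes of the table. That is 1.20-fold higher, the counting interval running from 1.19 to 1.21. The facilitative carrier gene Slc2a2 (GLUT2), the basolateral exit for glucose, galactose and fructose, had 65.6 and 75.1 FPKM, 1.14-fold higher (1.11 to 1.18). The ratio of Slc5a1 to Slc2a2 was 13.2 in wild type and 13.9 in the knockout. Slc2a5 (GLUT5), the apical fructose carrier, had 33.3 and 36.7 FPKM, 1.10-fold higher (1.04 to 1.17). Its neighbour Slc2a7, which starts 4802 bases past its end on chromosome 4 and encodes a related hexose carrier, was lower, at 18.2 and 15.1 FPKM. Slc5a9, which encodes a sodium-coupled carrier of mannose and fructose, had 11.5 and 12.6 FPKM.

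The largest difference among all carriers compared was that of Slc5a4a. Slc5a4a and Slc5a4b are rodent copies of the gene for SGLT3, a relative of SGLT1 that has been described as a glucose sensor with little transport. They lie next to each other on chromosome 10, with Slc5a4b on the minus strand at 76057494 to 76110961 and Slc5a4a on the plus strand at 76147451 to 76189265, and 36489 bases lie between them. Slc5a4a had 33.3 FPKM in wild type from 1194 reads and 75.3 in the knockout from 2731 reads, 2.26-fold higher, the counting interval running from 2.11 to 2.42. Slc5a4b had 23.1 and 30.8 FPKM from 1287 and 1741 reads, 1.33-fold higher (1.24 to 1.44). The ratio of Slc5a4a to Slc5a4b was 1.45 in wild type and 2.44 in the knockout. The intervals of both folds do not overlap, so within these libraries the copies differed by unequal amounts beyond counting error. Little sequence is shared closely enough to mix reads of the pair. Their longest annotated transcripts are 79.6% identical over 1979 aligned bases, and 1 of the 2006 stretches of 50 bases in Slc5a4a occurs in a transcript of another gene, Slc5a4b.

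The promoters of this pair are shown because the genes lie head to head and differed by unequal amounts. Each line gives 120 bases before and 30 bases after the RefSeq start (GRCm38.p6), 5′ to 3′ on the strand of the gene. Capitals mark the longest run of bases that both windows hold, 10 bases long, which begins at base 7 after the start in Slc5a4a and at base 10 in Slc5a4b.
Slc5a4a, chr10:76147331-76147480, plus strand: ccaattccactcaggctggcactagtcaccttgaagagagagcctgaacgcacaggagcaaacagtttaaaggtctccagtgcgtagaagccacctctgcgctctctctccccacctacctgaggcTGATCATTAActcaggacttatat
Slc5a4b, chr10:76110989-76111138, minus strand: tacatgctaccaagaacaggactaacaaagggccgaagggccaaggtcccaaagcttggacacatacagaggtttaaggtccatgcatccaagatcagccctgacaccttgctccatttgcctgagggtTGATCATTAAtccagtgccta
GTTAAT, the core of the HNF1 site, was searched on both strands. In Slc5a4a it matches on the reverse strand from base 12 after the start, overlapping the shared run and ending 1 base past it, and the window of Slc5a4b holds no match. HNF1 factors are known regulators of enterocyte genes. GTTAAT was found in 8.70% of the 92 promoter windows of the carriers, which cover 70 of the genes, and in 7.10% of all 32851 windows of 300 bases.

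Widely expressed sugar carriers were at low levels. Slc2a1 (GLUT1), the general glucose carrier of most cells, had 4.16 FPKM in wild type and 5.49 in the knockout, 1.32-fold higher (1.12 to 1.56). Slc2a10 had 1.83 and 2.93, 1.60-fold higher (1.26 to 2.04), and Slc2a8, an intracellular relative, had 1.72 and 2.63, 1.53-fold higher (1.18 to 2.001). Slc2a4 (GLUT4), the insulin-responsive carrier of muscle and fat, had 4.26 and 3.96. The other 4 hexose carriers measured stayed below 1 FPKM in both libraries. Smooth muscle genes, whose cells also express some of these carriers, lay around a median log2 ratio of 0.11 for 6 genes and summed to 567 and 624 FPKM, and their part in these values was not tested. The inositol carrier Slc5a11 (SMIT2) had 35.3 and 33.8 FPKM, and Slc5a3 and Slc2a13 were below 2 FPKM.

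Genes that work with the sugar carriers were looked at by list. Of the 5 disaccharidase genes of the brush border, 2 were above 0, 3 below and 0 past 2-fold. Sucrase-isomaltase (Sis) had 868 FPKM in wild type and 1203 in the knockout, 1.39-fold higher (1.38 to 1.40), and lactase (Lct) had 189.5 and 199, while Mgam, which encodes maltase-glucoamylase, had 716 and 639. All 7 compared genes of the ion gradients list lay above 0, where 41.3% of all genes compared lay. Their median log2 ratio was 0.13, against -0.049 over all genes, with a range of 0.055 to 0.28. Among them Atp1b1, which encodes a beta subunit of the sodium pump, had 613 and 667 FPKM. Of 11 compared genes of fructose and glucose handling, 5 were above 0, 6 below, and 0 reached 2-fold. Tkfc, which phosphorylates a product of fructose breakdown, had 147 and 138 FPKM, and Khk, the fructokinase gene, had 104 and 111. Hexokinase 2 (Hk2), named after its values were seen, had 15.2 and 8.34, 1.82-fold lower (1.67 to 1.98).

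The peptide carrier gene Slc15a1 (PepT1, minus strand of chromosome 14, 121459621 to 121505252) encodes the proton-coupled apical carrier of di- and tripeptides. It had 229 FPKM in wild type and 247 in the knockout, 1.08-fold higher (1.06 to 1.10). The lysosomal peptide and histidine carriers Slc15a4 and Slc15a3, which are typical of immune cells, had 2.12 and 2.25 FPKM and 1.09 and 0.887. Genes of a macrophage and dendritic cell list summed to 222 and 152.5 FPKM, with 8 of 9 below 0, where 58.7% of all genes compared lay. Their part in the values of Slc15a4 and Slc15a3 was not tested. The counting intervals of Slc15a4 and Slc15a3 included 1, at 0.870 to 1.30 and 0.606 to 1.10 as ratios of knockout to wild type. Slc15a2 (PepT2) was below the level for comparison, with 0.257 FPKM from 33 reads in wild type and 0.0308 from 4 reads in the knockout, 8.36-fold lower (2.97 to 32.5). It is named here after its values were seen. Brush border peptidases, which release the substrates of these carriers, lay around a median log2 ratio of -0.0045 for 10 genes, with 0 past 2-fold. Aminopeptidase N (Anpep) had 1888 and 1307 FPKM, and Naaladl1 had 949 and 752.

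Neutral amino acids enter enterocytes mainly through the sodium-coupled carrier encoded by Slc6a19 (B0AT1, minus strand of chromosome 13, 73679745 to 73704865). Slc6a19 had 203 FPKM in wild type and 211 in the knockout, 1.04-fold higher (1.01 to 1.06). Of 4 compared genes for partner proteins of carriers, 2 were above 0, 2 below and 0 past 2-fold, with the scaffold gene Slc9a3r1 at 671 and 580.0 FPKM and the kinase gene Sgk1 at 110.5 and 68.1. Slc6a18, the adjacent gene on the same strand and best known from kidney, had 0.533 and 0.218 FPKM from 41 and 17 reads. The basolateral exit carriers Slc7a8 (LAT2), with 68.3 and 65.8 FPKM, and Slc43a2 (LAT4), with 53.9 and 51.7, were nearly level. The aromatic amino acid exit carrier Slc16a10, which belongs to another family, had 32.6 and 29.6 FPKM.

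Of the 9 neutral amino acid carriers compared, 6 were below 0 and 3 above, and Slc7a5 alone passed the 1.5-fold step. Slc7a5 (LAT1, minus strand of chromosome 8, 121881150 to 121907694), the exchanger that supplies leucine to proliferating cells, had 6.13 FPKM in wild type from 396 reads and 3.19 in the knockout from 209 reads. That is 1.92-fold lower (1.62 to 2.28), the lowest log2 ratio among the carriers at -0.77, and below the 5 percentile of all genes compared, -0.63. Slc38a2 (SNAT2), which is induced when amino acids are scarce, had 36.1 and 26.6 FPKM, 1.36-fold lower (1.30 to 1.41). Slc1a5 (ASCT2), a glutamine carrier, had 24.6 and 21.2, 1.16-fold lower (1.08 to 1.24). Slc6a14, a carrier of neutral and cationic amino acids known to be raised in inflamed gut, had 11.6 and 7.67, 1.51-fold lower (1.34 to 1.70). Its log2 ratio of -0.54, with 1 FPKM added, did not reach the 1.5-fold step. On the other side, Slc1a4 (ASCT1) had 5.53 and 6.62 FPKM and Slc38a1 (SNAT1) had 9.05 and 10.2, 1.20-fold (1.04 to 1.38) and 1.13-fold (1.07 to 1.19) higher. The other 8 neutral carriers measured stayed below 1 FPKM in both libraries.

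Carriers of cationic amino acids and cystine include the apical heterodimer of rBAT, the heavy chain encoded by Slc3a1, and the light chain encoded by Slc7a9, whose loss causes cystinuria. Slc3a1 had 141 FPKM in wild type and 114 in the knockout, 1.24-fold lower (1.19 to 1.29). Slc7a9 had 125 and 99.0, 1.27-fold lower (1.22 to 1.32). Both chains were lower by nearly the same factor, and the ratio of Slc3a1 to Slc7a9 was 1.13 in wild type and 1.15 in the knockout. Of the stretches of 50 bases in Slc3a1, 24.8% also occur in transcripts of other genes, most of them of its neighbour Prepl, and strand was not known, so its value may hold reads of that gene. At the basolateral side Slc7a7, the light chain that exports cationic amino acids, had 80.3 and 74.8 FPKM, 1.07-fold lower (1.03 to 1.12). Its heavy chain 4F2hc, encoded by Slc3a2 and shared with LAT1 and LAT2, had 87.0 and 73.0, 1.19-fold lower (1.15 to 1.24). Slc3a2 stood at 0.549 of the summed FPKM of its 6 light chains Slc7a5, Slc7a6, Slc7a7, Slc7a8, Slc7a10 and Slc7a11 in wild type and at 0.496 in the knockout. Slc7a1 (CAT1), the arginine carrier of most cells, had 7.47 and 4.90 FPKM, 1.53-fold lower (1.41 to 1.65). Slc7a6, another light chain of 4F2hc, had 2.76 and 2.79, and Slc7a4 had 2.14 and 1.91, both with intervals that included 1.

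Proline, glycine and acidic amino acids have their own apical carriers. Slc36a1 (PAT1, plus strand of chromosome 11, 55204350 to 55236330), a proton-coupled carrier of proline and glycine that also acts at the lysosome, had 32.1 FPKM in wild type and 20.4 in the knockout, 1.57-fold lower (1.48 to 1.66). Its log2 ratio of -0.63 passed the 1.5-fold step, but not after scaling to the median ratio of all genes, at -0.57, or with 5 FPKM added, at -0.54. The sodium-coupled proline carrier Slc6a20a (SIT1) went the other way, with 20.7 and 22.5 FPKM, 1.09-fold higher (1.01 to 1.17). Its copy Slc6a20b, 2204 bases away on chromosome 9, had 0.181 and 0.172 FPKM, and because 26.7% of the 50-base stretches of Slc6a20a occur in other transcripts, single values of this pair are less certain. Slc6a9 (GlyT1), Slc36a4 and Slc6a7 had at most 3.66 FPKM and counting intervals that included 1. The glutamate carrier Slc1a1 (EAAT3), the one acidic amino acid carrier above 1 FPKM, had 12.1 and 15.98 FPKM, 1.32-fold higher (1.24 to 1.40). Of its 50-base stretches, 31.0% are shared with other transcripts, most with the gene 4430402I18Rik.

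Genes of the amino acid stress response were taken from a list chosen with earlier results of these data known. This response is run by the transcription factor ATF4, which is made when amino acids run short and switches on carriers and synthesis enzymes. All 14 genes of the list lay below 0, where 58.7% of all genes compared lay, with a median log2 ratio of -0.43 against -0.049 over all genes. On that ratio, with 1 FPKM added, 4 of them were past 1.5-fold, against 5.69% of all genes, and 1, Chac1, past 2-fold, against 2.51%. Cebpb, at 3.01 and 1.47 FPKM, was 2.05-fold lower (1.38 to 3.09) as a plain ratio but missed the 2-fold step there, at -0.70. The counting intervals of Ddit3 (7.94 and 7.54 FPKM), Vldlr (1.58 and 1.46) and Sesn2 (4.03 and 3.34) included 1. Chac1, which degrades glutathione, had 5.92 FPKM in wild type and 1.14 in the knockout, 5.19-fold lower (3.56 to 7.78). Atf4 itself had 129.7 and 93.7, 1.38-fold lower (1.33 to 1.44), asparagine synthetase (Asns) had 18.1 and 11.0, and Ddit4, an inhibitor of growth signalling, had 34.99 and 23.9. Markers of B and plasma cells and of T cells, given further on, lay below 0 as well, and their part in these values was not tested. Of 9 carriers known as ATF4 targets, a set assembled after the values were seen, 7 were compared, with 6 below 0, 1 above and a median of -0.25. The lower ones were Slc7a5, Slc7a1, Slc38a2, Slc3a2 and Slc1a5, Slc6a9 was level at 1.81 and 1.78 FPKM, and Slc1a4 was higher. The cystine-glutamate exchanger Slc7a11 (xCT) stayed below 1 FPKM, at 0.544 and 0.334 from 132 and 82 reads.

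**Figure D4:**
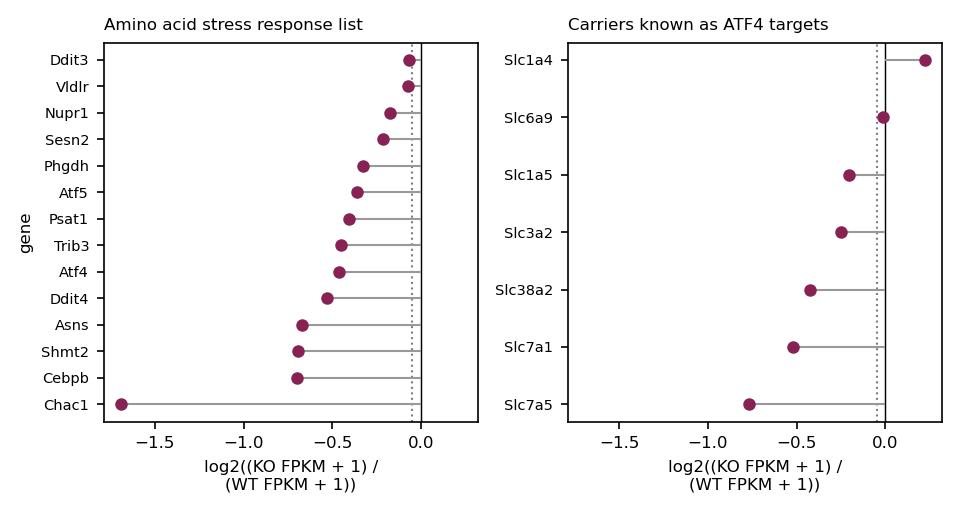
Log2 ratio of knockout to wild-type FPKM with a pseudocount of 1 for the 14 genes of the amino acid stress response list (left) and 7 carriers known as ATF4 targets (right). The list on the left was chosen with earlier results of these data known. The set on the right was assembled after the values were seen. The dotted line is the median of all genes compared, -0.049. All 14 genes on the left lie below 0, and on the right Slc1a4 alone lies above it.

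A regulatory element of this response was looked for in the promoters, as the letters TGATGCAA on both strands, the composite site of C/EBP and ATF4. It was present in 4.35% of the 92 carrier windows, which belong to 3 genes, and in 0.895% of all 32851 windows. The Slc7a7 site lies in 2 overlapping windows and was counted in both, while both Slc7a11 matches lie in 1 window, so the stretches printed are sites and not windows. The stretches are shown with 16 bases on each side, 5′ to 3′ on the strand of the gene (RefSeq, GRCm38.p6), and capitals mark the match on either strand.
Slc7a11, chr3:50443656-50443695, minus strand: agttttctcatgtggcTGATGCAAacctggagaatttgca
Slc7a11, chr3:50443637-50443676, minus strand: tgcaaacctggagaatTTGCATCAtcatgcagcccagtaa
Slc1a4, chr11:20332694-20332733, minus strand: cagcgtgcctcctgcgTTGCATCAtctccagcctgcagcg
Slc7a7, chr14:54417922-54417961, minus strand: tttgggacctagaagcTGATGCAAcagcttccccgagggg
The 3 genes did not share a direction. Slc7a11 was 1.63-fold lower (1.23 to 2.18), Slc7a7 was 1.07-fold lower and Slc1a4 was 1.20-fold higher. For Slc7a5 and Slc1a5 no promoter window was used here. The core of the SPIB site, GAGGAAGT, was in 1 of the 92 carrier windows, that of Slc43a1, a gene below 1 FPKM, and in 3.20% of all windows. CACGTG, the E box of the carbohydrate response element, was in 9.78% of the carrier windows, those of Slc5a1 and Slc36a1 among them, and in 7.15% of all. CAAAGTCCA, an HNF4 site, was in the window of Slc3a1 only and in 0.475% of all windows.

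Both sodium-coupled monocarboxylate carriers, which belong to the sugar carrier family Slc5 but carry lactate and short-chain fatty acids, were lower. Slc5a8 (SMCT1, plus strand of chromosome 10, 88885992 to 88929515) had 54.2 FPKM in wild type from 5035 reads and 32.5 in the knockout from 3063 reads, 1.67-fold lower (1.59 to 1.74). Slc5a12 (SMCT2, plus strand of chromosome 2, 110597298 to 110647779) had 37.8 and 22.8 FPKM from 2676 and 1638 reads, 1.66-fold lower (1.56 to 1.76). The genes lie on different chromosomes, and the interval of Slc5a8 lies inside that of Slc5a12. Their log2 ratios, -0.72 for Slc5a8 and -0.70 for Slc5a12, also lay below the 5 percentile of all genes compared, -0.63. Slc16a1, a proton-coupled monocarboxylate carrier of another family, had 25.1 and 33.0 FPKM. Distal markers lay around a median log2 ratio of -0.20 for 7 genes beside these values, with Slc51b, a basolateral bile acid carrier subunit, the lowest at -0.34. Below 0 were 6 of the 7, where 58.7% of all genes compared lay, with Slc10a2 nearly level at -0.0077 and Guca2a above 0 at 0.12. Of 5 compared genes of the proximal list, 4 lay above 0 and 1, Slc40a1, below at -1.14, with a median of 0.054. Whether the position of the tissue along the gut bears on Slc5a8 and Slc5a12 was not tested.

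The remaining members carry neurotransmitters, osmolytes and vitamins, among others, and most were close to level. The creatine carrier Slc6a8 had 156 FPKM in wild type and 148 in the knockout, and the taurine carrier Slc6a6 had 42.0 and 44.5. The serotonin carrier Slc6a4 (SERT), which clears serotonin from the mucosa, had 20.1 and 24.5, 1.22-fold higher (1.14 to 1.30). The biotin and pantothenate carrier Slc5a6 had 12.2 and 11.6, the urate carrier Slc2a9 had 10.9 and 10.3, and Slc7a15, whose substrate is not assigned here, had 55.3 and 58.7. Slc38a10 had 19.3 and 19.5 FPKM, and its relatives Slc38a7, Slc38a6 and Slc38a9 had 4.24 and 4.03, 1.53 and 1.13, and 1.01 and 0.973. For Slc38a6, 35.5% of the 50-base stretches are shared with other transcripts, for Slc5a6 20.8%, for Slc6a9 26.3% and for Slc15a3 26.8%, so their values are uncertain. Slc43a3, a purine base carrier, had 7.19 and 7.85. Of the 5 matching names outside a class, which are antisense or pseudogene transcripts or the unrelated gene Slc7a6os, 2 were compared. Slc2a4rg-ps had 3.16 and 1.79 FPKM and Slc7a6os had 6.87 and 6.03.

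Marker lists of other cell types differed from one another. Of all genes compared, 1.61% were at least 2-fold higher, 2.51% at least 2-fold lower and 5.69% at least 1.5-fold lower. Below 0 lay 58.7%. All 9 genes of the B and plasma cell list were lower in the knockout, 6 past 2-fold, with a median log2 ratio of -1.20 and a summed level of 1909 FPKM in wild type and 434 in the knockout, and none was at 0. All 8 compared T cell genes lay below 0, 6 past 1.5-fold and 1 past 2-fold, with summed levels of 20.3 and 8.78 FPKM, and the interval of Cd2 included 1. All 7 compared tuft cell genes were higher by at least 2-fold, with summed levels of 11.8 and 64.6 FPKM. Paneth cell genes had a median of 0.37, with 5 of 7 above 0 and 2 below. Ang4 had 809 and 4221 FPKM, while Lyz1 had 5754 and 4250 and Pla2g2a had 48.2 and 28.6. Goblet cell genes had a median of 0.045, with 5 of 7 above 0 and 2 below. Past 2-fold were 2 of them, Clca1 at 696 and 2059 and Spink4 at 511 and 1095. Those below 0 were Fcgbp, with 534 and 454, and Zg16, with 1843 and 1750. Crypt genes stayed between -0.18 and 0.23, and fibroblast and endothelium genes between -0.11 and 0.14. Lymphocytes express Slc7a5, Slc1a5 and Slc3a2, and the part of the cell mixture in the lower values of these carriers was not tested. In whole tissue, fewer cells of a type and less RNA per cell cannot be told apart. For the enterocyte carriers Slc5a1, Slc15a1 and Slc6a19 the marker list of the same cells had the median near 0 given above, with a range of log2 ratios of -0.38 to 0.79. Of 5 genes of a villus tip enterocyte list, 4 lay above 0, where 41.3% of all genes compared lay, and 1 below. Their median was 0.21, and Nt5e, at 7.15 and 19.7 FPKM, was past 2-fold. Apoa4 is in both lists. The part of villus tip cells in the values of these carriers was not tested.

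The 38 carriers below 1 FPKM in both libraries reached at most 0.934 FPKM. Of these, 22 had at least 10 reads in 1 library, 5 were at 0 in at least 1 library and 1, Slc6a12, was at 0 in both. They include the brain glutamate carriers Slc1a2 and Slc1a6, the dopamine and noradrenaline carriers Slc6a3 and Slc6a2, and the GABA carriers Slc6a11 and Slc6a13. Neuron and glia markers were low too, with 3 of 9 genes compared and summed levels of 11.8 and 13.8 FPKM. A count of 0 allows up to 3 reads, which is 0.172 FPKM in wild type and 0.170 in the knockout for a transcript of 1 kb. Slc5a2 (SGLT2), the kidney glucose carrier, was not analysed here.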

How the data were processed

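RNA was measured in 2 libraries of small intestine tissue. Per the labels' protocols, RNA was extracted with TRIzol and cDNA was amplified by SMART-Seq II. The deposited table gives FPKM per gene, computed by the authors. The submitters' processing notes list Bowtie2 2.2.3, HTSeq 0.6.0 and build mm10 but give no role or order. The sources used here give no annotation, strand setting, filter or pooling.

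Identifiers were joined to GENCODE M21 (27222 of 27275 matched), and coordinates are 1-based on mm10. FPKM multiplied by exon length stepped in whole reads, within 0.01, for 90.6% of values above 0 in wild type and 90.7% in the knockout. Reads of 81 carriers came out whole, and those of 11 (Slc15a1, Slc1a1, Slc3a1, Slc7a7, Slc7a8, Slc7a4, Slc6a7, Slc38a1, Slc38a2, Slc38a4 and Slc5a7) did not and were rounded, so their read numbers and counting intervals are approximate. Genes of at least 1 FPKM in 1 library were compared, with a pseudocount of 1. Python 3.11.15 was used. The steps were tested on simulated data. Named by rule are carriers of at least 10 FPKM, carriers past 1.5-fold and, of each list, genes of highest level or past 2-fold. Other genes named were chosen after their values were seen. The carrier families and all lists were chosen with earlier results of these data known. Scaling, filters and pseudocounts of 0.1 and 5 were varied. Promoters came from RefSeq, 70 carriers matching by symbol. A few genes are not reported here.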

Additional observations from a re-analysis of the deposited data

How the results depend on the processing

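No paired analysis was possible because each genotype has 1 library, and for the same reason no library could be left out. Under all 7 alternatives tried, Slc5a4a was the only carrier at least 2-fold higher and no carrier was 2-fold lower, and the median log2 ratio of the carriers stayed between -0.090 and -0.00040. At the 1.5-fold step the number of lower carriers was 7 with a pseudocount of 0.1 and 7 with values rescaled to TPM, which raises them against the pseudocount. It was 2 with a pseudocount of 5, namely Slc5a8 and Slc5a12. It was 3 after rescaling to the median ratio of all genes, where Slc36a1 dropped out. With a pseudocount of 0.1, 3 carriers were 1.5-fold higher. The inositol median was -0.25 with a pseudocount of 0.1, -0.054 with one of 5 and -0.23 after rescaling to TPM. The peptide median was -0.13 without a filter, and that of proline and glycine ran from -0.27 as a ratio of sums to 0.015. The acidic class had a median of -0.037 without a filter, since 4 genes below 1 FPKM then entered, and Slc3a2 had a log2 ratio of -0.19 after rescaling to the median ratio of all genes. Over all genes compared, 355 were 2-fold higher and 575 lower with a pseudocount of 0.1, 61 and 122 with one of 5, and 97 and 193 among genes of at least 5 FPKM. The rescaling to the enterocyte list and the alternatives of the 1.5-fold counts were chosen after seeing the data. The hexose median stayed between 0.17 and 0.33, and that of the cationic class between -0.32 and -0.13. Single carriers near 0 changed sign, namely Slc38a10 and Slc7a6 under TPM, Slc36a4 and Slc6a9 under the enterocyte scaling, and Slc36a4, Slc6a9, Slc38a9, Slc43a2 and Slc7a8 under the median scaling. Depth limits the carriers below 1 FPKM, of which 22 of 38 had at least 10 reads in a library.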
